A study of Mus musculus with 4 samples.

Results

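The expression of 10 genes of the bone morphogenetic protein (BMP) pathway was compared between Senp6-deleted and control chondrocytes. The genes were 4 ligands (Bmp2, Bmp4, Bmp6 and Gdf5), 3 receptors (Bmpr1a, Bmpr1b and Bmpr2), 2 secreted antagonists (Grem1 and Nog) and the target gene Id1. They were picked by symbol as genes of the pathway, with no threshold on their values, and all 10 are among the 18298 genes that the files list. The cells were primary chondrocytes, the cells that make cartilage, cultured to passage 1 from the rib cartilage of C57BL/6 embryos at E18.5. The 2 control samples carried both floxed alleles of Senp6 without Cre (Senp6f/f), and the 2 mutant samples carried the same floxed alleles together with Dermo1-Cre. Senp6 encodes a protease that removes SUMO chains from proteins. The Twist2 gene, also named Dermo1, drives this Cre in mesenchymal progenitors that give rise to bone and cartilage. No source used here says whether a sample held cells of 1 embryo or of several, and p values measure only the spread between these samples.

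BMP ligands are secreted dimers that bring together type I receptors, such as Bmpr1a and Bmpr1b, and the type II receptor Bmpr2. The active type I receptor phosphorylates Smad1, Smad5 and Smad9, which enter the nucleus with Smad4 and switch on genes such as Id1. Gremlin 1 (Grem1) and Noggin (Nog) bind ligands outside the cell and keep them from the receptors. In cartilage the pathway is needed for chondrocytes to form, and Gdf5 marks the cells of developing joints.

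Each sample had between 21.0 M and 31.0 M reads counted on genes, and the test covered 14123 genes that reached 10 counts in 2 or more samples. The count of Senp6 was 1125 and 2326 in the control samples and 1839 and 1126 in the mutant samples, a log2 fold change of -0.56 ± 0.279 (SE, n = 2 per group, edgeR adjusted p = 0.410). A count over the whole gene does not single out the deleted exons. Mutant replicate 2 had 11354 reads of Xist, against 2 to 5 in the other samples, and the Y-linked Ddx3y was read 3 times in mutant replicate 2 and 818 to 1601 times in the others. Mutant replicate 2 thus had the pattern of female cells and the other samples that of male cells, so the groups were not balanced in it. No sample label gives the sex of the embryos. The 8 chondrocyte markers, of which Col2a1 was the highest, summed to 830 to 831 RPKM in the control samples and to 404 and 535 RPKM in the mutant samples. Col2a1 alone had 609 and 659 RPKM in the control samples and 334 and 445 RPKM in the mutant samples, and Matn1, the lowest of the list, had 2.71 and 1.82 RPKM against 0.145 and 0.371 RPKM. The 10 skeletal muscle markers summed to 34.9 and 101 RPKM in the control samples and to 179 and 197 RPKM in the mutant samples. All of these markers had a read in every sample. RPKM is the count scaled by gene length and by the reads counted in the sample, so it can be compared between genes.

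Grem1 was the member with the largest difference. Its level was higher in both mutant samples than in either control sample, with a mean of 79.5 against 22.3 RPKM, and Bmp4 was lower in both, with a mean of 8.66 against 16.6 RPKM. The receptors and Id1 differed little, with log2 fold changes between -0.18 and 0.25. In edgeR's quasi-likelihood test with Benjamini-Hochberg adjustment over all tested genes, 0 of the 10 genes and 0% of the 14123 genes had an adjusted p under 0.05. At an unadjusted p under 0.05 there were 2 of 10 members, Grem1 and Bmp4, against 15.6% of all tested genes. DESeq2, run on every gene with a read, gave 1 member past an adjusted p of 0.05, Bmp4. In that tool 4.79% of the 14750 genes with an adjusted p were past it. With limma on log2(RPKM + 1) of the 14123 genes, 0 members and 0 genes were past it. The samples of the groups did not overlap for 4 members, Grem1, Gdf5 and Bmpr2 higher and Bmp4 lower in the mutant, against 48.2% of all tested genes (25.3% higher and 22.8% lower), so this count is no larger than the background. Overlap was judged on CPM, the count scaled to the size of the library, after TMM, edgeR's normalization between libraries. The median log2 fold change was 0.07 over the members and 0.01 over all tested genes, and the median size was 0.18 and 0.20. The smallest two-sided p that exact permutation over 2 against 2 samples allows for 1 gene is 0.333.

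**Figure D1:**
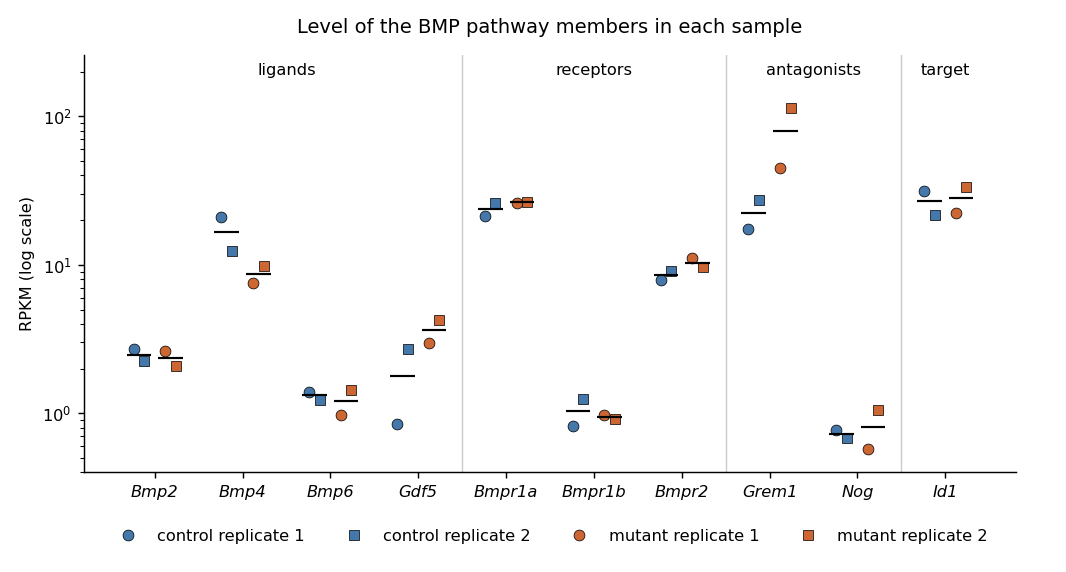
Level of each of the 10 genes in RPKM on a log scale, with 1 point for each sample (control blue, mutant orange, replicate 1 circle, replicate 2 square) and a line at the mean of each group. The Grem1 points of the mutant samples, at 45.1 and 114 RPKM, lie above both control points, and those of Bmp4, at 7.52 and 9.80 RPKM, lie below both.

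The 250 bases before the transcription start of the Grem1 and Bmp4 genes are given here because these were the members with an unadjusted p under 0.05. The RefSeq promoter table (GRCm38.p6) held 6 of the 10 members. Both genes lie on the minus strand, Grem1 at chr2:113758649-113758898 and Bmp4 at chr14:46390670-46390919, and the sequences run 5′ to 3′ along the gene. Capitals mark GGCGCC, a GC-rich element that BMP Smads can bind, and GTCT or its reverse complement AGAC, the short Smad-binding element.
Grem1: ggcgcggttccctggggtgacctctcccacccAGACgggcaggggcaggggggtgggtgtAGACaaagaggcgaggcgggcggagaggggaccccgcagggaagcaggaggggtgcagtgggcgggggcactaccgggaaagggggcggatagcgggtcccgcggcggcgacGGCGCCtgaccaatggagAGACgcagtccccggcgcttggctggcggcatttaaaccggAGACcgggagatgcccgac
Bmp4: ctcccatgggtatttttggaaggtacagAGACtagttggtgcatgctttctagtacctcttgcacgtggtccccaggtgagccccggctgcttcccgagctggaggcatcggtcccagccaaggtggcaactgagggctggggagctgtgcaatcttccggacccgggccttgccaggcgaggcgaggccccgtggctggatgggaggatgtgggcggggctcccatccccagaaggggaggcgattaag
The Grem1 window held 1 GGCGCC, which begins 78 bases before the start, and 4 matches of GTCT on either strand, and 72.0% of its bases were G or C. The Bmp4 window held no GGCGCC and 1 match of GTCT, and 63.2% of its bases were G or C. The windows of Bmpr1a and Bmpr2 also held 1 GGCGCC each, and those of Bmp6 and Bmpr1b held none. Of 32851 promoter windows of the same length, 9.59% held GGCGCC and 82.9% held GTCT on either strand, and the median share of G and C was 52.4%. The first motif is a palindrome, and the motifs share no bases here. A match of letters is a description and not a bound site.

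Grem1, the antagonist that binds BMP2 and BMP4, had counts of 600 and 1163 in the control samples and 2293 and 5272 in the mutant samples. In RPKM these were 17.4 and 27.1 against 45.1 and 114, and the lower mutant sample was 1.66 times the higher control sample. The mutant samples differed from each other by 2.52 times and the control samples by 1.56 times. The log2 fold change was 1.79 ± 0.419 (SE, n = 2 per group), with a 95% interval of 0.78 to 2.79, which is 3.45 times on the linear scale. The p was 0.00432 before and 0.125 after adjustment in edgeR, and the adjusted p was 0.114 in DESeq2. The highest value was that of mutant replicate 2, the sample with Xist reads. Without that sample the log2 fold change was 1.0, and without mutant replicate 1 it was 2.30. The direction was the same whichever sample was left out, and the size depended on the mutant sample that remained. By p, Grem1 ranked 489 among the 14123 genes, and by log2 fold change it ranked 282 from the top. The muscle marker sum was also higher in both mutant samples and the chondrocyte marker sum lower, and their part in the Grem1 result was not tested. In RNA from bulk cultures, fewer cells of a type and less RNA per cell cannot be told apart.

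Nog, the antagonist first known from the embryonic organizer, was the member with the fewest reads, 31 and 34 counts in the control samples and 34 and 57 in the mutant samples. The exact Poisson 95% intervals of these counts, which cover counting error only, ran from 21.1 to 44.0 at the lowest count and from 43.2 to 73.9 at the highest. The groups overlapped, with 0.767 and 0.677 RPKM in the control and 0.571 and 1.05 RPKM in the mutant samples. The log2 fold change was 0.12 ± 0.413 (SE, n = 2 per group, edgeR adjusted p = 0.923), and its interval of -0.87 to 1.11 covers changes of either direction. Of the summed level of Grem1 and Nog, Grem1 made up 95.8% to 99.1% in the 4 samples. The other extracellular modulators of the pathway, some of them abundant, are not part of this sum.

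Bmp4, a ligand that promotes the formation and growth of cartilage, had counts of 876 and 645 in the control samples and 465 and 552 in the mutant samples. In RPKM these were 20.9 and 12.4 against 7.52 and 9.80. Both mutant samples were lower than both control samples, and the lower control sample was 1.26 times the higher mutant sample, a smaller gap than the 1.69 times between the control samples. The log2 fold change was -0.99 ± 0.281 (SE, n = 2 per group), with a 95% interval of -1.66 to -0.32, which leaves 0.503 of the control level. The p was 0.0106 before and 0.172 after adjustment in edgeR, and DESeq2 gave a log2 fold change of -1.01 with an adjusted p of 0.0153. Control replicate 1 set much of the size. Without it the log2 fold change was -0.54. Leaving out mutant replicate 1 gave -0.83, leaving out mutant replicate 2 gave -1.17, and leaving out control replicate 2 gave -1.37. Bmp4 ranked 875 by p among the tested genes and 373 from the bottom by log2 fold change. The chondrocyte marker sum was lower in both mutant samples as well. The 8 osteoblast markers summed to 496 and 551 RPKM in the control and 510 and 653 RPKM in the mutant samples. Spp1 was the largest part of that sum, with 310 and 468 RPKM against 479 and 600 RPKM. Of the 6 osteoblast markers tested, 5 were lower and 1, Spp1, was higher in both mutant samples, against 22.8% and 25.3% of all tested genes. The part of these markers in the Bmp4 result was not tested. The exons of Bmp4 overlap those of Gm15217 on the opposite strand, and whether the counting used strand is not given in the sources used here.

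Gdf5, the ligand of developing joints, had counts of 41 and 165 in the control samples and 215 and 279 in the mutant samples. In RPKM these were 0.842 and 2.72 against 2.99 and 4.26. Both mutant samples were higher, but control replicate 2 lay close to mutant replicate 1, which was 1.10 times its level, and the control samples differed from each other by 3.24 times. The counting intervals of the control samples, 29.4 to 55.6 and 141 to 192, do not meet, so counting error is smaller than that spread. Between the groups the log2 fold change was 0.98 ± 0.490 (SE, n = 2 per group), with an interval of -0.20 to 2.15 and an edgeR adjusted p of 0.409. It was 0.39 without control replicate 1, 0.73 without mutant replicate 2 and 2.00 (edgeR adjusted p = 0.00162) without control replicate 2. Of the 5 markers of tendon and joint fibroblasts, Prg4, which encodes lubricin of the joint surface, had 0.745 and 1.19 RPKM in the control and 2.40 and 4.31 RPKM in the mutant samples. Prg4 was singled out after its values were seen, and the 5 markers did not move together. Their log2 fold changes were 1.74 for Prg4, 0.81 for Mkx and 0.03 for Scx. Thbs4, at -0.43, and Tnmd, at -0.58, went the other way. The groups overlapped for Scx, Thbs4 and Tnmd. The list as a whole summed to 89.5 and 54.1 RPKM against 57.2 and 62.9 RPKM, with Tnmd the highest gene and Mkx the lowest by the mean over the 4 samples, and its part in the Gdf5 values was not tested. Gdf5 shares exon sequence with Gm15557 on the opposite strand.

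Bmp2 and Bmp6, which like Bmp4 can drive cartilage and bone formation, overlapped between the groups. Bmp2 had 2.71 and 2.26 RPKM in the control and 2.62 and 2.09 RPKM in the mutant samples, with a log2 fold change of -0.12 ± 0.233 (SE, n = 2 per group, edgeR adjusted p = 0.860). Its interval of -0.67 to 0.44 leaves room for a moderate change. Bmp6 had 1.40 and 1.24 RPKM in the control and 0.977 and 1.42 RPKM in the mutant samples, from 71 to 97 counts. Its log2 fold change was -0.18 ± 0.306 (SE, n = 2 per group, edgeR adjusted p = 0.830), with an interval of -0.92 to 0.55. The exons of Bmp6 overlap Txndc5 on the opposite strand.

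Together the 4 ligands summed to 25.9 and 18.6 RPKM in the control samples and to 14.1 and 17.6 RPKM in the mutant samples. Of these 4, Bmp4 was the most abundant in every sample. It made up 80.8% and 66.5% of the ligand sum in the control and 53.3% and 55.7% in the mutant samples. The share of Gdf5 was 3.26% and 14.6% in the control and 21.2% and 24.2% in the mutant samples. These shares are a description of the 4 samples and were not tested.

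The receptors overlapped or nearly overlapped between the groups. Bmpr1a, a type I receptor, had 21.3 and 25.9 RPKM in the control and 26.2 and 26.4 RPKM in the mutant samples. The mutant values were almost equal and lay just above the higher control value in RPKM, but the groups overlapped after TMM scaling. Its log2 fold change was 0.12 ± 0.134 (SE, n = 2 per group, edgeR adjusted p = 0.738), with an interval of -0.20 to 0.44. Exons of Bmpr1a overlap the antisense gene Gm17110. Bmpr1b, the type I receptor that Gdf5 prefers, was far lower, with 0.823 and 1.25 RPKM in the control and 0.972 and 0.909 RPKM in the mutant samples. Its log2 fold change was -0.18 ± 0.269 (SE, n = 2 per group, edgeR adjusted p = 0.804), with an interval of -0.83 to 0.46. The level of Bmpr1a was 20.7 to 29.1 times that of Bmpr1b across the 4 samples. Bmpr2, the type II receptor, had 7.92 and 9.05 RPKM in the control and 11.1 and 9.66 RPKM in the mutant samples. Both mutant samples were higher, the lower of them by 1.07 times, which is less than the 1.14 times between the control samples. Bmpr2 had a log2 fold change of 0.25 ± 0.141 (SE, n = 2 per group, edgeR adjusted p = 0.464), with an interval of -0.09 to 0.59. The estimates of Bmpr1a and Bmpr2 were the most precise of the members, and both intervals end below a doubling. The sum of the 3 receptors was 30.0 to 38.3 RPKM over all samples.

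**Figure D2:**
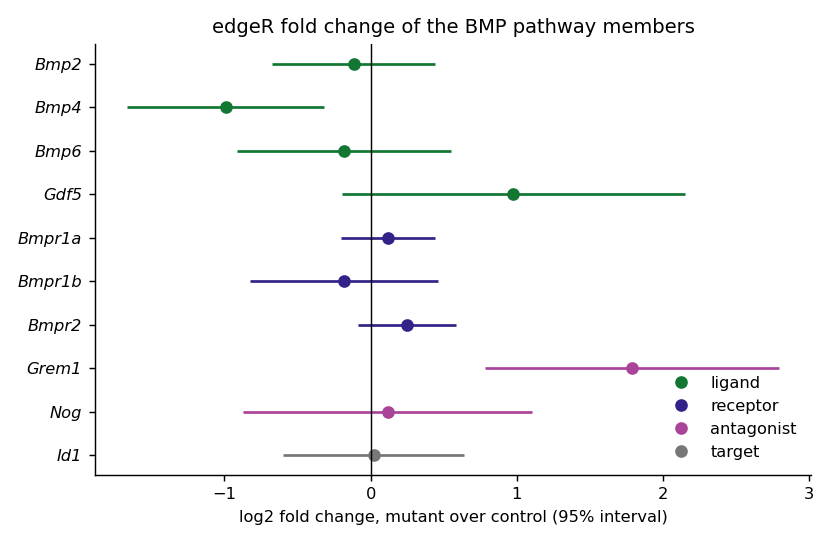
Fitted log2 fold change of the 10 genes, mutant over control, with points colored by role and bars for the 95% interval of the edgeR fit (n = 2 per group). The intervals of Grem1 (0.78 to 2.79) and Bmp4 (-1.66 to -0.32) leave out 0 and the other 8 include it.

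Id1, a direct target of the BMP Smads, encodes an inhibitor of helix-loop-helix transcription factors. It had 31.7 and 21.8 RPKM in the control and 22.5 and 33.6 RPKM in the mutant samples, from counts of 606 and 519 against 636 and 864. Each group held 1 high and 1 low sample, so the groups overlapped fully. The log2 fold change was 0.02 ± 0.259 (SE, n = 2 per group, edgeR adjusted p = 0.979), and its interval of -0.60 to 0.64 does not leave out a moderate change in either direction. Leaving out 1 sample at a time gave values from -0.28 to 0.34. Its relatives Id2 and Id3 also overlapped between the groups. Id2 had 27.9 and 22.9 RPKM in the control and 26.7 and 28.0 RPKM in the mutant samples. Id3, the most abundant of the other targets listed, had 182 and 121 RPKM against 149 and 163 RPKM (log2 fold change -0.01, edgeR adjusted p = 0.988). Id4 had 7.97 RPKM in control replicate 1 and 2.79 to 3.82 RPKM in the other samples. The sum of Id1 to Id4 was 249 and 169 RPKM in the control samples and 201 and 228 RPKM in the mutant samples.

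Of the 56 other pathway genes that were tested and had reads in all 4 samples, Eng, Dand5 and Smad9 had the pattern most like that of Id1 over the 4 samples. Likeness was the root mean square difference between log2 CPM after each gene was centered on its own mean. It was 0.10 for Eng, 0.11 for Dand5 and 0.12 for Smad9 on the log2 scale. Eng encodes endoglin, a co-receptor, and had 38.9 and 28.7 RPKM in the control and 28.1 and 36.7 RPKM in the mutant samples. Smad9 had 1.70 and 1.37 RPKM in the control and 1.51 and 1.97 RPKM in the mutant samples. Dand5, an antagonist of the DAN family, had 2.85 and 1.93 RPKM against 1.71 and 2.61 RPKM. With 4 samples this is a description, and the values of all genes share the same 4 libraries.

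The order of the members by RPKM differed between the groups. In the control samples Id1, Bmpr1a, Grem1 and Bmp4 were the highest, and the values of each overlapped those of the next. Bmpr2 followed, apart from its neighbors, then Bmp2, Gdf5, Bmp6 and Bmpr1b, which overlapped in that order, and Nog was the lowest. In the mutant samples Grem1 was the highest, apart from Id1. Id1 and Bmpr1a overlapped, as did Bmpr2 and Bmp4 after them. Gdf5, Bmp2, Bmp6 and Bmpr1b followed without overlap between neighbors except that Bmpr1b and Nog overlapped.

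The RPKM of Grem1 over that of Bmp4 was 0.833 and 2.19 in the control samples and 6.00 and 11.6 in the mutant samples. Grem1 was therefore below Bmp4 in control replicate 1 and above it in the other 3 samples. The sum of Grem1 and Nog over the sum of the 4 ligands was 0.703 and 1.50 in the control and 3.24 and 6.54 in the mutant samples. The groups did not overlap in either ratio. The ratios combine differences already given for Grem1 and Bmp4, were not tested, and concern RNA and not secreted protein. They leave out the other ligands and extracellular modulators of the pathway, so they do not give its whole balance.

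**Figure D3:**
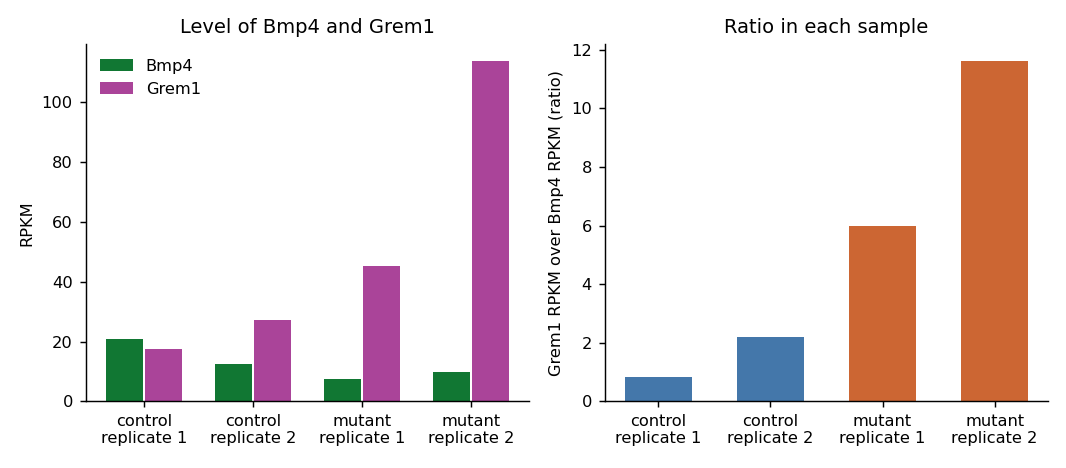
Left, the level of Bmp4 (green) and Grem1 (purple) in RPKM in each sample, and right, the ratio of Grem1 to Bmp4 in the same samples (control blue, mutant orange). The ratio is 0.833 and 2.19 in the control samples and 6.00 and 11.6 in the mutant samples.

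Beyond the 10 members, 53 other genes of the pathway were listed by role, and 48 of them were tested. None was past an adjusted p of 0.05 in edgeR. At an unadjusted p under 0.05 there were 12 higher and 10 lower in the mutant samples, against 9.29% of all tested genes higher and 6.28% lower. Of the 12, Bmp8b, Sostdc1, Chrdl2 and Hey1 reached 10 counts only in mutant samples, so they entered the test through the group where they are high and had to differ, and the counts are no support for a direction. The groups did not overlap for 30 of the 48, against 48.2% of all tested genes. The median log2 fold change was 0.03, and the median size was 0.52, against 0.20 over all tested genes. The 30 and the median size include Bmp8b, Sostdc1, Chrdl2 and Hey1, and the list was chosen with earlier results known. Neither value is therefore support for a change of the pathway. DESeq2 placed 4 higher and 3 lower past an adjusted p of 0.05, against 4.79% of all genes in that tool, and Hey1 is among the 4. Bmp10, Bmp15, Gdf2, Sost and Cer1 had too few reads for the test.

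Of the 8 other ligands tested, 2 were higher and 3 lower at an unadjusted p under 0.05, against 9.29% and 6.28% of all tested genes. Gdf10, also called BMP3B, had the highest mean over the 4 samples, although Bmp5 was higher in mutant replicate 2 (10.1 RPKM). Gdf10 had 19.5 and 13.7 RPKM in the control and 10.7 and 7.02 RPKM in the mutant samples (log2 fold change -0.95, edgeR adjusted p = 0.177, DESeq2 adjusted p = 0.0167). Bmp3, which opposes bone formation, had 1.38 and 0.406 RPKM against 0.321 and 0.216 RPKM (log2 fold change -1.76, edgeR adjusted p = 0.251). Bmp7 had 2.54 and 2.57 RPKM in the control and 1.49 and 1.36 RPKM in the mutant samples (log2 fold change -0.88, edgeR adjusted p = 0.125). The genes that were higher had few reads. Gdf6, a close relative of Gdf5 in joints, had 25 and 26 counts in the control and 134 and 64 in the mutant samples (log2 fold change 1.56, edgeR adjusted p = 0.165). Bmp8b had 4 counts in each control sample and 25 and 45 in the mutant samples. It reached 10 counts only in mutant samples, so its place among the 2 higher is no support for a direction.

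Among the 10 other receptors and co-receptors, 1 was higher and 4 were lower at an unadjusted p under 0.05, against 9.29% and 6.28% of all tested genes. Tgfbr3, the betaglycan co-receptor, which had the highest mean over the 4 samples but was below Eng in mutant replicate 2, had 40.0 and 41.6 RPKM in the control and 28.2 and 32.4 RPKM in the mutant samples (log2 fold change -0.47, edgeR adjusted p = 0.157). Acvr2a, a type II receptor shared with activins, had 4.96 and 4.36 RPKM against 3.34 and 2.85 RPKM (log2 fold change -0.63, edgeR adjusted p = 0.160). The co-receptor Rgma had 23.8 and 17.3 RPKM against 15.4 and 13.1 RPKM (log2 fold change -0.57, edgeR adjusted p = 0.246). Bambi, a pseudoreceptor without a kinase, had 4.16 and 2.72 RPKM against 2.06 and 2.54 RPKM (log2 fold change -0.63, edgeR adjusted p = 0.311). Hfe2, the hemojuvelin co-receptor known from skeletal muscle and liver, had 11 and 5 counts in the control and 34 and 44 in the mutant samples (log2 fold change 1.87, edgeR adjusted p = 0.194). Of the 10 muscle markers, 7 were higher in both mutant samples than in either control sample, against 25.3% of all tested genes, and their part in the Hfe2 values was not tested. Acta1 was the highest of that list, with 38.6 and 11.9 RPKM against 58.9 and 65.5 RPKM, and Ckm the lowest, with 1.51 and 0.0270 RPKM against 0.296 and 0.250 RPKM.

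The extracellular modulators, the class of Grem1 and Nog, had 6 higher and 2 lower of 14 tested at an unadjusted p under 0.05, against 9.29% and 6.28% of all tested genes, and Sostdc1 and Chrdl2 of the 6 reached 10 counts only in mutant samples. Crim1, a membrane protein that binds BMPs, had 13.8 and 18.8 RPKM against 32.8 and 39.5 RPKM (log2 fold change 1.11, edgeR adjusted p = 0.0833, DESeq2 adjusted p = 4.27e-06). Tll1, a protease of the tolloid family that cleaves Chordin, had 1.22 and 2.21 RPKM against 5.43 and 5.56 RPKM (log2 fold change 1.64, edgeR adjusted p = 0.0833, DESeq2 adjusted p = 3.21e-06). The follistatin genes, whose products bind activins and some BMPs, included a pair that was higher. Fst had 29.2 and 29.8 RPKM against 36.9 and 57.5 RPKM (log2 fold change 0.63, edgeR adjusted p = 0.217), and Fstl3 had 3.31 and 4.25 RPKM against 7.88 and 8.05 RPKM (log2 fold change 1.03, edgeR adjusted p = 0.0943, DESeq2 adjusted p = 0.00562). Fstl1, the most abundant modulator, had 709 and 675 RPKM against 618 and 541 RPKM (log2 fold change -0.30, edgeR adjusted p = 0.388).

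Sostdc1 and the Chordin-like gene Chrdl2 were higher at very low counts, 4 and 0 against 17 and 14 counts for Sostdc1 and 1 and 4 against 14 and 12 counts for Chrdl2. The lower modulators were Chrdl1 and Bmper. Chrdl1, another Chordin-like antagonist, had 6.96 and 2.29 RPKM in the control and 0.578 and 0.870 RPKM in the mutant samples (log2 fold change -2.73, edgeR adjusted p = 0.0985, DESeq2 adjusted p = 3.43e-07). Bmper, which binds BMPs and can either block or aid them, had 16.1 and 12.2 RPKM against 7.85 and 6.71 RPKM (log2 fold change -1.01, edgeR adjusted p = 0.0961, DESeq2 adjusted p = 0.000636). Secreted antagonists thus lay on both sides, Grem1 on the higher and Chrdl1 on the lower.

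Inside the cell, 1 of 8 Smads and their regulators had an unadjusted p under 0.05, a share near the 15.6% of all tested genes. This was Smad7, an inhibitory Smad, with 4.55 and 4.83 RPKM in the control and 6.91 and 7.21 RPKM in the mutant samples (log2 fold change 0.55, edgeR adjusted p = 0.135). Smad6, the inhibitory Smad more specific to BMP signals, had 14.9 and 9.10 RPKM against 10.3 and 10.9 RPKM. Smad4, the shared partner and the most abundant, had 33.8 and 33.1 RPKM against 38.1 and 34.4 RPKM (log2 fold change 0.07, edgeR adjusted p = 0.843). The receptor-activated Smad1 had a log2 fold change of 0.16 ± 0.146 and Smad5 of 0.04 ± 0.138 (SE, n = 2 per group).

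Of the 8 other targets, 2 were higher and 1 was lower at an unadjusted p under 0.05, against 9.29% and 6.28% of all tested genes, and their median log2 fold change was 0.03. Hey1, which is also a target of Notch, had 5 and 9 counts in the control and 55 and 68 in the mutant samples. It reached the count minimum of the test only in mutant samples, so its place among the 2 higher is no support for a direction. Msx2 had 0.198 and 0.531 RPKM against 0.895 and 1.05 RPKM (log2 fold change 1.34, edgeR adjusted p = 0.248). Atoh8 had 30.6 and 18.7 RPKM against 14.2 and 16.3 RPKM (log2 fold change -0.74, edgeR adjusted p = 0.229). Id1 with its log2 fold change of 0.02 lay near the middle of these targets.

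**Figure D4:**
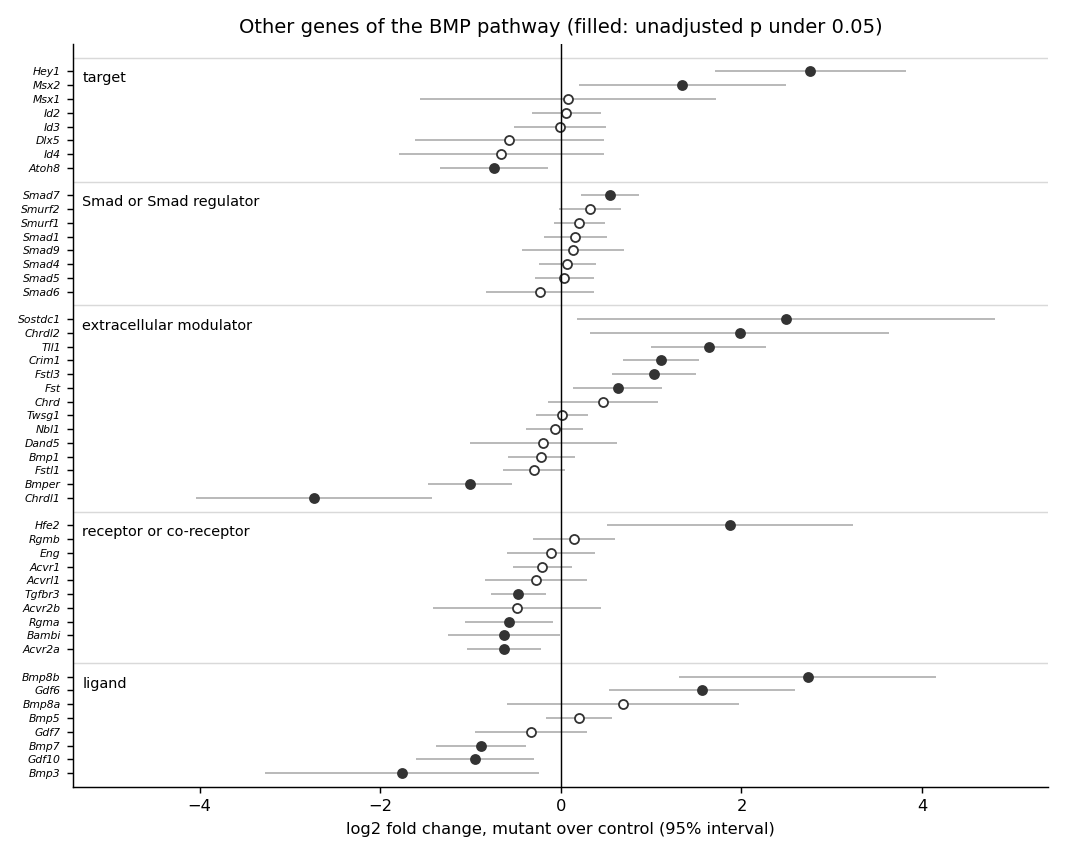
Fitted log2 fold change of the 48 other BMP pathway genes tested, mutant over control, grouped by role, with bars for the 95% interval (n = 2 per group) and filled points for an unadjusted p under 0.05. Filled points lie on both sides of 0, with 12 higher (Bmp8b, Sostdc1, Chrdl2 and Hey1 reached 10 counts only in mutant samples) and 10 lower, and none was past an adjusted p of 0.05 in edgeR.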

How the data were processed

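RNA of 2 control and 2 mutant cultures was sequenced, with groups taken from the sample labels. For each gene the authors deposited the raw read count and the RPKM, scaled by gene length and by reads counted on genes. The percent of each gene covered by reads, also deposited, was not used. Per the labels the build was mm9 and SAMtools was used. The aligner, counter and annotation are not given in the sources used here, so only RefSeq promoter coordinates are printed. A gene absent from a sample's list had a count of 0. Adgre1 was matched to the older symbol Emr1 by Entrez identifier.

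Counts were tested with the edgeR 4.0.16 quasi-likelihood test (R 4.3.3, TMM, robust estimation) on 14123 genes (10 or more counts in 2 or more samples), and p values were adjusted by Benjamini-Hochberg with a threshold of 0.05. SE was derived from the F statistic. Alternatives were DESeq2 1.42.0, limma 3.58.1, other scalings and filters, a replicate block, and leaving out each sample. Scripts were tested on simulated data. Replicates differed beyond sampling noise (chi-square over degrees of freedom 51.5 and 24.9), so none is the same library sequenced again. This does not tell whether separate libraries came from the same RNA.

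The members and lists were chosen with earlier results of these data known, and 1 gene of the pathway list is not reported here. Besides all members, genes named were pathway genes past an adjusted p of 0.05, those with an unadjusted p under 0.05 and no overlap of groups, the most abundant of each role, the 3 most like Id1, and the highest and lowest of each marker list. Senp6, Xist and Ddx3y, as checks, were named outside this rule after their values were seen. Prg4, Scx, Thbs4, Bmp5, Id2, Id4, Smad1, Smad5 and Smad6 were also named in that way. No outlier test was run, as each group had 2 samples.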

Additional observations from a re-analysis of the deposited data

How the results depend on the processing

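The count of genes past an adjusted p of 0.05, 0 in edgeR, was 436 higher and 271 lower with DESeq2, 6 and 2 with scaling by library size alone, 225 and 61 without the filter on low counts, and 0 with limma and with DESeq2's size factors in edgeR. Leaving out 1 sample gave 68 to 1296 higher and 37 to 1444 lower. Such a fit leaves 1 sample in a group, which is assumed to vary like the other group. Members past the threshold were 0 higher and 1 lower with DESeq2 (Bmp4, log2 fold change -1.01), and 0 to 1 higher and 0 to 1 lower without 1 sample. Other pathway genes were 4 higher and 3 lower with DESeq2, 4 and 1 without the filter, and 2 to 8 higher and 0 to 13 lower without 1 sample. Members without overlap of groups were 6 to 9 without 1 sample, since a lone sample overlaps less often by construction, and 5 by library size alone or by RPKM. Grem1, Gdf5, Bmpr1a and Bmpr2 were higher and Bmp4 lower under all alternatives run. Leaving out 1 sample gave log2 fold changes of 1.0 to 2.30 for Grem1, 0.39 to 2.00 for Gdf5 and -1.37 to -0.54 for Bmp4. For Bmpr2 they were 0.13 to 0.37, and for Bmpr1a 0.0018 to 0.21, of which the lowest is almost no change. The direction turned for 5 members when 1 sample was left out, with log2 fold changes of -0.30 to 0.058 for Bmp2, -0.45 to 0.055 for Bmp6, -0.43 to 0.095 for Bmpr1b, -0.36 to 0.48 for Nog and -0.28 to 0.34 for Id1. The median of the other pathway genes ran from -0.16 to 0.18 without 1 sample and was -0.12 with at least 10 counts in every sample. The cause was not tested.

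The replicate numbers are shared by the groups, but no source says that they mark a pair, and the deviations of same-numbered samples correlated with r = -0.042 across genes, so they were not taken as pairs. With the replicate block, 84 genes were higher and 33 lower, with 1 member higher (Grem1, log2 fold change 1.68, edgeR adjusted p = 0.0396) and 2 other pathway genes higher, Crim1 and Tll1. Depth limits Nog most, with 31 to 57 counts in a sample.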

Other observations

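The remaining marker lists gave these values. The 8 osteoblast markers summed to 496 and 551 RPKM in the control and 510 and 653 RPKM in the mutant samples. Spp1, the highest, had 310 and 468 RPKM against 479 and 600 RPKM, and Bglap, with the lowest mean over the 4 samples, was at 0 in control replicate 1 and mutant replicate 1. Of the 6 tested, 5 were lower and 1 higher in both mutant samples than in either control sample, against 22.8% and 25.3% of all tested genes. The 8 blood and macrophage markers summed to 17.8 and 15.7 RPKM against 7.29 and 10.8 RPKM. Lyz2, with the highest mean over the 4 samples, had 11.1 and 7.85 RPKM against 2.53 and 4.76 RPKM, Hba-a1 had reads only in mutant replicate 2, and Hbb-b1 was listed in none of the 4 samples. The 5 endothelial markers summed to 0.613 to 1.10 RPKM over all samples. Kdr, with the highest mean over the 4 samples, had 0.131 and 0.238 RPKM against 0.390 and 0.570 RPKM, and Tie1, the lowest, had 1 to 4 counts.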
